A study of Mus musculus with 30 samples.

Results

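The nuclear oxidative phosphorylation genes were followed through 8 organs of 8 mice, in 30 libraries made with Seq-Well, a microwell method for single-cell RNA. They are here all protein-coding genes whose symbol begins with Nduf, Uqcr, Cox4 to Cox8 or Atp5, together with Sdha to Sdhd. The rule used names and no measured value. Of 96 such genes in the RefSeq annotation, 92 were among the 23013 gene rows of the table, and Cox7b2, Cox8c, Ndufb1 and Ndufb4b were not analysed here. The 92 comprised 37 complex I subunits, 8 complex I assembly factors (Ndufaf1 to Ndufaf8), 4 genes of complex II, 8 of complex III, 18 of complex IV and 17 of complex V. Complex IV here holds the 16 genes named Cox and also Ndufa4 and its relative Ndufa4l2, since the Ndufa4 protein is known as a subunit of that complex. Another 11 rows with such symbols were annotated pseudogenes and were left out. They held 2.53% as many units as the members, and processed copies of this kind can share reads with their parent genes.

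Oxidative phosphorylation takes place in the inner mitochondrial membrane. Complexes I and II pass electrons from NADH and succinate to ubiquinone, complex III hands them to cytochrome c, and complex IV, cytochrome c oxidase, reduces oxygen. Complexes I, III and IV pump protons, and complex V, the ATP synthase, uses the gradient to make ATP. A few core subunits are encoded by mitochondrial DNA and all other subunits by nuclear genes, so each complex except II needs both genomes. Heart and skeletal muscle carry their own isoforms of several complex IV subunits.

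All mice were male DBA1/J animals, 8 to 12 weeks old by the study's methods. In the 4 mice with collagen-induced arthritis (CIA), S1, S2, S6 and S7, disease was induced with 100 µg of bovine type II collagen in complete Freund's adjuvant, with a boost in incomplete adjuvant on day 20, and mice H3, H4, H6 and H7 were given saline and served as 4 healthy controls. Arthritis scores were 0 in the healthy mice, 8 in S1 and S2, 3 to 4 in S6 and 3 in S7. Replicate mice were available for blood and for lymph node, each with 3 arthritic and 4 healthy animals. The other 6 organs came from a single animal per state: S1 for CIA, H3 for the healthy joint, and H6 for healthy thymus, spleen, skin, muscle and lung. Libraries of the same mouse and organ were added up to 26 mouse-organ profiles. The study asked which organs change most in arthritis. Blood cells were enriched for mononuclear cells by centrifugation. By the study's methods, thawed lymph node, spleen and thymus were strained without enzymes, whereas joint, lung, muscle and skin were digested, so organ and preparation cannot be told apart when these 4 organs are set against lymph node.

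Values are units, the sums of unique molecular identifiers (UMIs) after the authors' smoothing over neighbouring barcodes, and UPM stands for these units per-million after scaling between profiles. Because smoothing copies a molecule into several barcodes, units are not counts of molecules. Libraries held 217494 to 7886790 units from 27 to 934 barcodes, and 13 barcode sequences occurred in more than 1 library but 0 whole profiles did. Haemoglobin genes held 52.9% of the units of H4 blood and 38.6% of S2 blood, and the blood of H3 rested on 27 barcodes. The healthy muscle library went against its label: markers of skeletal muscle held 0.425% of units in S1 muscle but 0.00729% in H6 muscle, where neutrophil markers held 10.7%. In lung, epithelial markers held 2.22% of units in H6 and 0.24% in S1. Rare genes were missing from 19 libraries and kept in 11, so a value of 0 is given only as listed at 0. In sums over a library, fewer cells of a type and less RNA per cell cannot be told apart.

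Because the members are described together, the upstream sequence that some of them share is shown first. RefSeq windows (GRCm38.p6) from 250 bases before to 50 bases after the start were held for 75 of the 92 genes, in 80 windows. The 9 letters GCGCATGCG (complement CGCATGCGC), the core bound by nuclear respiratory factor 1 (NRF1), a regulator known for respiratory chain genes, lay in 10 of these 80 windows (12.5%) and in 575 of 32851 windows of all genes (1.75%). The letters CCGGAAGT or their complement ACTTCCGG, a core of ETS factors such as GABPA, lay in 6.25% of the member windows and 3.89% of all. The letters AAGATGGCG (complement CGCCATCTT) of YY1 lay in 8 member windows and in 1.40% of all, and TCAAGGTCA (complement TGACCTTGA) of ERR alpha in 2 member windows and 0.423% of all. The members with the NRF1 letters were Atp5g2, Atp5k, Atp5l, Cox6a1, Ndufa11, Ndufa8, Ndufaf4, Ndufaf5, Uqcr11 and Uqcrc1. Because these letters are nearly palindromic, a match on one strand often overlaps a match on the other. Of the genes in which a match with its flanks lay wholly upstream, the 3 with the highest mean UPM are printed with 10 bases on either side and the motif in capitals, followed by the ETS letters of Uqcr11, the member called in every organ contrast below.
Atp5k, chr5:108434431-108434459, minus strand: tttcactgcgGCGCATGCGcctttctggc
Cox6a1, chr5:115349102-115349130, minus strand: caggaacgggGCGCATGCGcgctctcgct
Ndufa11, chr17:56717692-56717720, plus strand: cctgcactgcGCGCATGCGcgcacgcctt
Uqcr11, chr10:80406870-80406897, minus strand: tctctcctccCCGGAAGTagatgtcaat
All 4 stretches lie upstream of the annotated start and outside the transcript of the gene named. These matches describe letters and were not tested for binding.

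As a share of all units, the members were highest in skin and thymus. They held 1.99% of the 75369123 units of the series. In lymph node their share was 1.39% ± 0.21 (SD, n = 7 mice), from 1.08% to 1.70%. In blood it was 1.13% ± 0.32 (SD, n = 7), from 0.580% in H4 to 1.53% in S6, and the blood and lymph node ranges overlapped. With haemoglobin genes left out of the total, blood was at 1.47% ± 0.45 and lymph node at 1.42% ± 0.17, H4 blood at 1.23% and S2 blood at 2.37%, so the order of blood and lymph node turned and S2 blood stood above both spleen profiles (1.82% and 2.27%). Skin held 3.15% in H6 and 4.08% in S1, and thymus 3.66% in H6 and 3.58% in S1, so that all 4 of these libraries were above every blood and lymph node profile. Lung held 1.96% and 3.12%, muscle 1.80% and 2.67%, spleen 1.81% and 2.06%, and joint 1.73% and 2.16%, healthy before CIA in each pair. As a share of all units, these 4 organs also lay above every blood and lymph node profile. The margin was small, with H3 joint at 1.73% and S1 lymph node at 1.70%. On the scaled level skin and thymus were high as well: the sum was 34916 and 45771 UPM in skin and 32371 and 31815 UPM in thymus, against 11105 to 16028 UPM in the 7 lymph nodes and 7835 to 13318 UPM in 6 of the 7 blood profiles. The exception was S2 blood at 24285 UPM, which stood above both profiles of lung (16893 and 21406 UPM), muscle (18584 and 23083 UPM) and spleen (17312 and 22149 UPM). Joint of S1 reached 32471 UPM, with 16284 UPM in H3. Its position depended on the scaling, since the share of units of S1 joint was 2.16%. The 2 libraries of S1 joint gave shares of 2.09% and 3.17%.

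**Figure D1:**
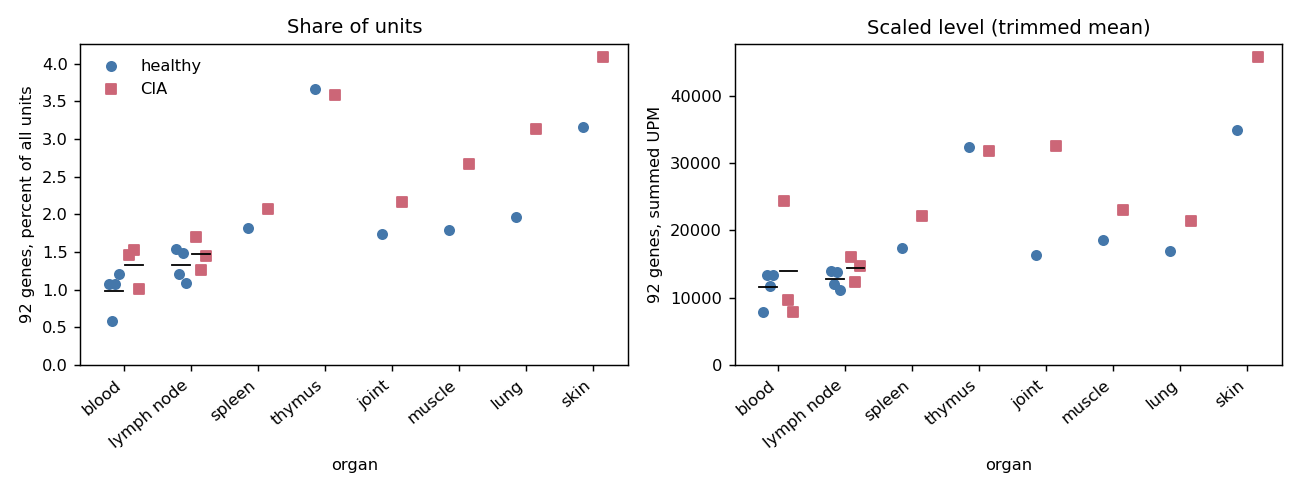
Sum of the 92 nuclear oxidative phosphorylation genes in each of 26 mouse-organ profiles, as percent of all units (left) and as UPM scaled by a trimmed mean (right), by organ on the x axis. Circles are healthy and squares CIA mice, and black lines are means of groups of 3 or 4 mice. Skin and thymus lie above all blood and lymph node profiles on both axes, while the joint of S1 (2.16% and 32471 UPM) reaches the level of thymus only on the right.

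Complexes I, IV and V kept similar proportions of member units while the sum varied. Complex I subunits held 30.3% ± 1.8 (SD, n = 26 profiles), from 26.9% to 33.9%, complex IV 27.2% ± 1.6, from 24.7% to 31.1%, and complex V 27.9% ± 1.8, from 25.02% to 31.97%. Complex III held 11.7% ± 1.5 and ranged from 8.37% to 15.7%. Complex II, which also works in the citric acid cycle, held 1.88% ± 0.91 and ranged from 0.657% in S1 skin to 5.58% in S6 blood. The assembly factors held 0.955% ± 0.615 and were listed at 0 in the CIA blood of S6 and S7. The 10 members of highest mean UPM (Cox4i1, Cox6c, Atp5e, Atp5j, Uqcrh, Ndufa4, Uqcrq, Atp5md, Ndufb8 and Ndufa6) together held 33.7% ± 2.3 of member units, from 30.3% to 39.8%. Single members shifted more within this total. Uqcrq, a small subunit of complex III, held 4.04% of member units in skin and 3.94% in lung (means of 2 mice), against 2.04% ± 0.49 in lymph node (n = 7). Uqcrh, the hinge protein of complex III, showed the opposite order, with 1.85% in skin, 1.67% in lung and 3.77% ± 0.50 in lymph node. Cox4i1, the main form of the regulatory subunit 4 of cytochrome c oxidase, held 5.23% in thymus and 7.60% ± 1.00 in lymph node. These shares are descriptions without a test.

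Across the 26 profiles, 39 members were above 0 in every one. Over the 78 members with a mean of at least 25 UPM, Pearson's r between a member and the mean of the others on the log2 scale had a median of 0.78 and ran from 0.22 to 0.92. The highest values belonged to Cox8a (0.92), Atp5o (0.92) and Cox4i1 (0.91). The lowest belonged to Ndufaf4, an assembly factor of complex I (0.22), Cox7a2l, a relative of Cox7a2 that joins complexes III and IV into supercomplexes (0.25), and Sdhc, a membrane anchor of complex II (0.36). All profiles share their scaling factor between genes, so these values are a description only.

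To see which members differed between organs, each of the 6 organs with 2 mice was set against the 7 lymph nodes in 1 limma fit over all organs except blood, with disease state as a term. This comparison was added after the sums by organ had been seen. It tested 5712 genes and 79 members, and all 6 contrasts share the same lymph node profiles, so they are not independent of each other. Profiles of the same mouse, such as the several organs of S1 and of H6, entered as separate samples. An adjusted p (Benjamini-Hochberg) under 0.05 counted as a call, and differences are in log2(UPM + 10). Rare genes were missing from every lymph node library but kept in every library of skin and spleen. The part of this filter in the contrasts was not tested.

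In skin, 49 of 79 members were higher than in lymph node and 0 were lower, where 19.6% of all tested genes were called higher and 17.3% lower. The median difference of the members was 1.34 and that of all genes 0.21. Calls fell in complex I (21 of 36), III (5 of 8), IV (10 of 12) and V (13 of 16), and in 0 of 4 genes of complex II and 0 of 3 assembly factors. The member with the smallest p was Uqcr11, a small subunit of complex III (chromosome 10, 80402997 to 80406821 in GRCm38). It stood at 957 UPM in H6 skin and 1533 UPM in S1 skin, and at 85 to 176 UPM in lymph node apart from H6 at 57 UPM. The groups did not overlap, and the difference was 3.21 ± 0.36 (SE). Atp5md, a small membrane subunit of the ATP synthase, stood at 1280.1 and 1662 UPM in skin and at 139 to 337 UPM in lymph node (2.56 ± 0.33). Uqcrq stood at 1164 and 2173 UPM against 186 to 401 UPM, and Ndufb8, an accessory subunit of complex I, at 1099 and 1291 UPM against 177 to 278 UPM (2.28 ± 0.33). Ndufc1, Atp5mpl, Atp5l, Cox6b1, Atp5o and Uqcrb completed the 10 members of smallest p, with differences of 1.93 to 2.53. With mouse as a replicate block in place of state, 20 members were called in skin, all higher and all of the 10 just named among them, beside 8.23% of all genes higher. Without S1, 29 were called, of which 28 were higher, beside 8.78% of all genes higher. Here and in the other organs, leaving out S1, H6 or H3 where it was 1 of the 2 mice left a single profile of that organ, as did keeping the 2CIA libraries alone except in joint. The lone profile was then assumed to vary like the other organs.

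In thymus, 43 of 79 members were higher and 0 lower, where 8.28% of all tested genes were called higher and 14.6% lower (22.9% either way). The median difference of the members was 1.31, that of all genes 0.13. Calls covered complex I (16 of 36), III (4 of 8), IV (8 of 12), V (13 of 16), 1 of 4 complex II genes and 1 of 3 assembly factors. Uqcr11 stood at 675 and 715 UPM (2.41 ± 0.36). Cox7a2, the widely expressed form of complex IV subunit 7a, stood at 950.0 and 843 UPM in thymus and at 170 to 376 UPM in lymph node (1.82 ± 0.33). Atp5b, the catalytic beta subunit of the ATP synthase, had a mean of 602 UPM in thymus and 154 ± 41 UPM in lymph node (1.93 ± 0.39). Cox6a1, Atp5md, Cox7b, Atp5h, Atp5j, Ndufc1 and Atp5mpl had differences of 1.49 to 1.78. The number of thymus calls was sensitive to how mice entered the fit: it was 2 (Uqcr11 and Cox6a1) with the replicate block, beside 1.1% of all genes higher. Leaving out H6, or keeping the libraries with the title suffix 2CIA alone, left 1 thymus profile. The median member difference was 0.97 with the block and 1.10 in the 2CIA libraries.

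**Figure D2:**
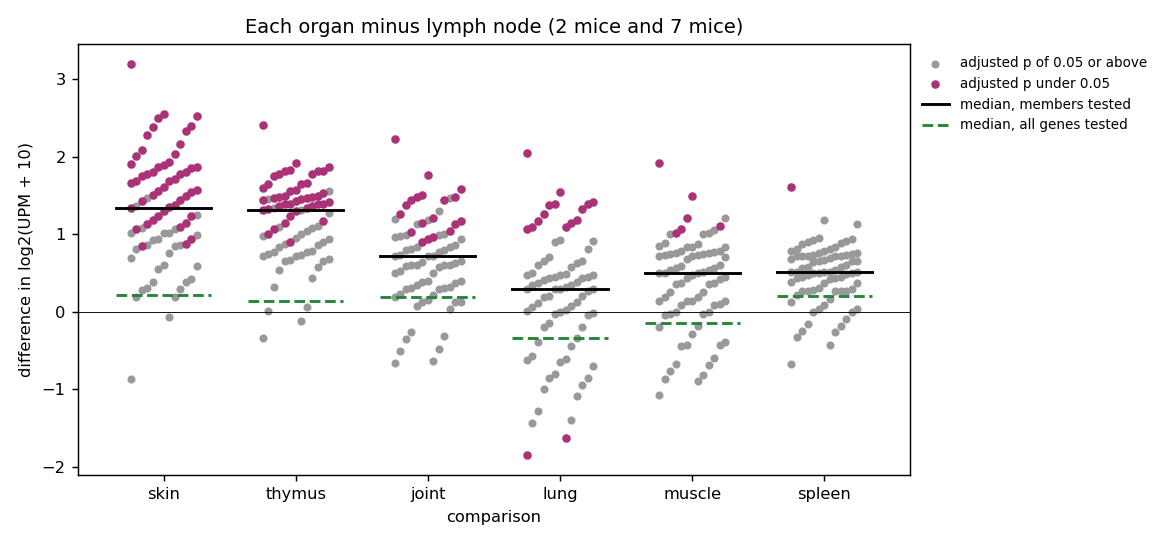
Difference in log2(UPM + 10) between each organ (2 mice) and lymph node (7 mice) for the 79 members tested, 1 point per gene. Purple points passed an adjusted p of 0.05 in limma, black lines are the member medians (1.34 in skin and 1.31 in thymus) and dashed green lines the medians of all 5712 genes.

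In joint, 19 members were higher and 0 lower, beside 15.9% of all genes higher and 13.5% lower. Uqcr11 led again at 477 UPM in H3 and 781 UPM in S1 (2.23 ± 0.36), followed by Ndufb9 (1.59 ± 0.39) and Atp5l (1.48 ± 0.38). The joint count was 2 with the replicate block (8.96% of all genes higher), 10 when units were scaled to the total alone (11.9%) and 26 without H6 (17.5%). Leaving out S1 left a single joint profile. Over leaving out each mouse, the member median in joint ran from 0.29 to 1.18. In lung, 14 members were higher, beside 10.9% of all genes, and 2 were lower, beside 27.3%. Uqcr11 stood at 532 and 543 UPM in lung (2.05 ± 0.36) and Ndufb8 at 729 and 698 UPM (1.55 ± 0.33). The 2 lower members were Cox7a2l, at 34 and 54 UPM in lung against 134 to 220 UPM in lymph node (-1.85 ± 0.51), and Ndufb3 (-1.63 ± 0.52), which was listed at 0 in 1 lung profile. The lung count was 3 with the block (1 higher and 2 lower, beside 5.08% and 16.7% of all genes). It was 34 with median-of-ratios scaling (33 higher and 1 lower, beside 18.6% and 21.4%). The 2CIA libraries left a single lung profile. Over leaving out each mouse, the member median in lung ran from 0.15 to 0.36.

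In muscle, 6 members were higher and 0 lower, beside 9.05% of all genes higher and 16.4% lower. These were Uqcr11, Atp5l, Cox8a, Atp5o, Ndufb4 and Cox6a1, with differences of 1.02 to 1.92. Both muscle profiles entered, although the healthy one lacked muscle markers. The count was 27 with median-of-ratios scaling (12.9% of all genes higher) and 1 with the block (2.52%). Leaving out S1 or H6 left a single muscle profile. Over leaving out each mouse, the member median in muscle ran from 0.43 to 0.53. Among 2CIA libraries, which leave S1 muscle alone, 3 members were higher and 3 lower, beside 6.62% and 15.1% of all genes. In spleen, Uqcr11 was the 1 member called (306 and 513 UPM, 1.62 ± 0.36), beside 2.56% of all genes higher and 9.02% lower, and 0 were called with the block (0.0875%). Without H3, 4 members were called in spleen, beside 2.48% of all genes higher. Leaving out S1 left a single spleen profile. Over leaving out each mouse, the member median in spleen ran from 0.44 to 0.54. At an unadjusted p under 0.05 in limma, 57 members passed in skin (46.3% of all genes), 58 in thymus (34.3%), 34 in joint (39.8%), 21 in muscle (35.8%) and 14 in spleen (23.6%), each of them higher than in lymph node, and in lung 17 were higher and 7 lower (45.7%). Uqcr11 was thus higher than in lymph node in all 6 organs. In blood it lay at 88 to 182 UPM in 4 healthy mice, at 131 and 109 UPM in S6 and S7 and at 551 UPM in S2, so that low values were shared by blood and lymph node with S2 as the exception.

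**Figure D3:**
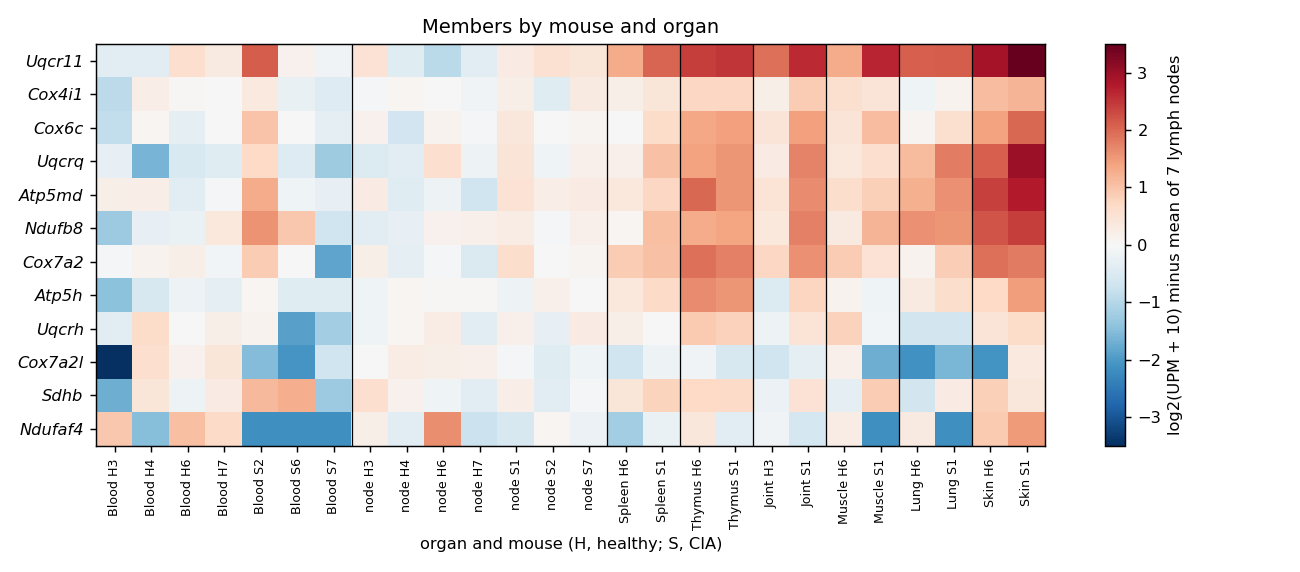
Level of 12 members in 26 mouse-organ profiles, as log2(UPM + 10) minus the mean of the 7 lymph nodes. Rows are genes, columns are mice within organs, and red is above and blue below lymph node. Uqcr11 is red in all 12 profiles of the 6 other organs and in S2 blood, whereas Cox7a2l is blue in both lung profiles.

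Companion lists show how neighbouring pathways behaved in the same contrasts. Their counts stand beside the shares of all genes called higher, which were 19.6% in skin, 15.9% in joint, 10.9% in lung, 9.05% in muscle, 8.28% in thymus and 2.56% in spleen. Of 54 tested mitochondrial ribosome proteins, which translate the subunits encoded by mitochondrial DNA, 16 were higher in skin and 12 in thymus and 0 were lower in either, and their medians were 1.04 and 1.05, where those of all genes were 0.21 and 0.13. In lung 5 were higher and 5 lower, in joint 3 and in muscle 1 were higher, and in spleen 0 were called. Among 9 carriers of electrons and adenylates, 5 were higher in skin, 3 in thymus and 1 in joint, 1 was lower in lung, and 0 were called in muscle and spleen. These included Slc25a5, the ADP/ATP carrier, with means of 1171 and 1104 UPM against 432 ± 112 UPM in lymph node, and in skin cytochrome c (Cycs, 2.61 ± 0.58). Of 11 tested genes of the citric acid cycle and pyruvate dehydrogenase, 1 was higher in skin and in muscle (Dld) and 1 in thymus (Mdh2, 1.70 ± 0.41), 2 were lower in lung (Idh3g and Pdha1), and 0 were called in joint and spleen. Of 11 assembly genes outside the name rule, 2 were higher in skin, 1 in thymus, 1 in joint, 1 in lung and 2 in muscle, and 2 were lower in lung and 1 in muscle. Uqcc2, which assembles complex III, was called in skin (2.80 ± 0.52), thymus, joint, lung and muscle.
Of 11 tested genes of glycolysis, 7 were higher in joint, among them Aldoa (2.37 ± 0.40), Slc2a3, a glucose transporter (3.56 ± 0.77), and Hk2, a hexokinase (3.02 ± 0.58). Lymph node lay near the floor for Slc2a3 (6.1 ± 12.4 UPM) and Hk2 (7.8 ± 10.3 UPM), below the 10 UPM added to each value. The number of glycolysis genes higher was 5 in skin, 3 in lung, 3 in spleen, 2 in muscle and 2 in thymus, and these counts were not tested against each other. The mitochondrial antioxidants gave 3 of 4 in joint (Gpx4, Prdx5 and Sod2), 2 in skin, 2 in lung, 1 in muscle and 0 in spleen and thymus. Of 5 regulators of biogenesis and hypoxia, Hif1a was higher in skin and joint, Myc was higher in skin and lower in lung, and 0 were called in thymus, muscle and spleen. Cytosolic ribosome proteins gave calls in both directions: of 85 tested, 7 were higher and 3 lower in skin, 2 higher and 7 lower in thymus, 1 higher and 15 lower in joint, 1 higher and 11 lower in muscle, 5 lower in spleen, and 2 higher and 42 lower in lung, with medians of 0.10 in skin, -0.04 in thymus and -0.94 in lung. The cell mixtures also differed between organs. Markers of fibroblasts held 0.44% and 1.69% of units in skin and 1.44% and 2.21% in joint and 0.00% in 7 of 7 lymph nodes, and neutrophil markers held 6.26% and 13.1% in joint. The part of cell mixture in these differences was not tested.

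The next comparison asked whether members changed with arthritis in blood. Under limma, 0 of 73 tested members were called, where 8 of 4789 genes (0.167%) were called. At an unadjusted p under 0.05, 1 member passed, beside 9.88% of all genes. The median member difference, CIA minus healthy, was 0.13, with 40 members above and 33 below 0, and that of all genes was -0.47. The member with the smallest p was Ndufaf4, listed at 0 in all 3 CIA mice and at 74, 6, 81 and 60 UPM in H3, H4, H6 and H7 (unadjusted p = 0.016, adjusted p = 0.44 in limma). The groups did not overlap. Of all genes, 7.29% were lower in CIA without overlap. Rare genes were missing from the blood libraries of S6, S7 and H7. They were kept in those of S2, H3 and H6 and in the H4 library with the title suffix CIA. The part of this filter in the blood values was not tested. Uqcrh stood at 539, 125 and 210 UPM in S2, S6 and S7, and at 385 to 787 UPM in healthy blood (difference -1.12 ± 0.56). Ndufb8 stood at 708, 458 and 141 UPM and at 91 to 302 UPM in healthy blood (0.97 ± 0.61). Both overlapped between the groups. Mouse S2 set the direction of the list, since the summed level was 24285 UPM in S2, 9672 UPM in S6 and 7835 UPM in S7, beside 7905 to 13318 UPM in the healthy mice. Without S2 the median member difference was -0.42. The same blood held 38.6% haemoglobin, and neutrophil markers took 6.38% of units in S2 and 7.38% in S7, against 0.52% in S6 and 0.17% to 0.54% in healthy blood. Their part in the result was not tested. All CIA blood libraries carry the suffix 2CIA. Among 2CIA libraries alone, which leave H3 and H4 as healthy mice, 0 members were called and the median was 0.82, with 0.46 over all genes.

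In lymph node, 0 of 77 tested members were called in limma, where 1 of 4964 genes (0.0201%) was called, and 2 members passed an unadjusted p under 0.05, beside 4.09% of all genes. The median member difference was 0.16 and that of all genes 0.07. The summed level was 16028, 12358 and 14653 UPM in S1, S2 and S7, and 13882, 12056, 13838 and 11105 UPM in H3, H4, H6 and H7. Ndufs8, an iron-sulfur subunit of complex I, stood at 142, 135 and 139 UPM in CIA and at 75, 82, 103 and 81 UPM in healthy nodes. These groups did not overlap (0.65 ± 0.30, adjusted p = 0.98 in limma). Ndufa8 stood at 33 to 71 UPM in CIA and 13 to 32 UPM in healthy mice (1.00 ± 0.46, adjusted p = 0.98 in limma). Cox7a2l was lower without overlap, at 134 to 174 UPM against 184 to 220 UPM (-0.37 ± 0.29). In all, 5 members were higher and 1 lower without overlap, beside 3.44% and 2.56% of all genes.

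**Figure D4:**
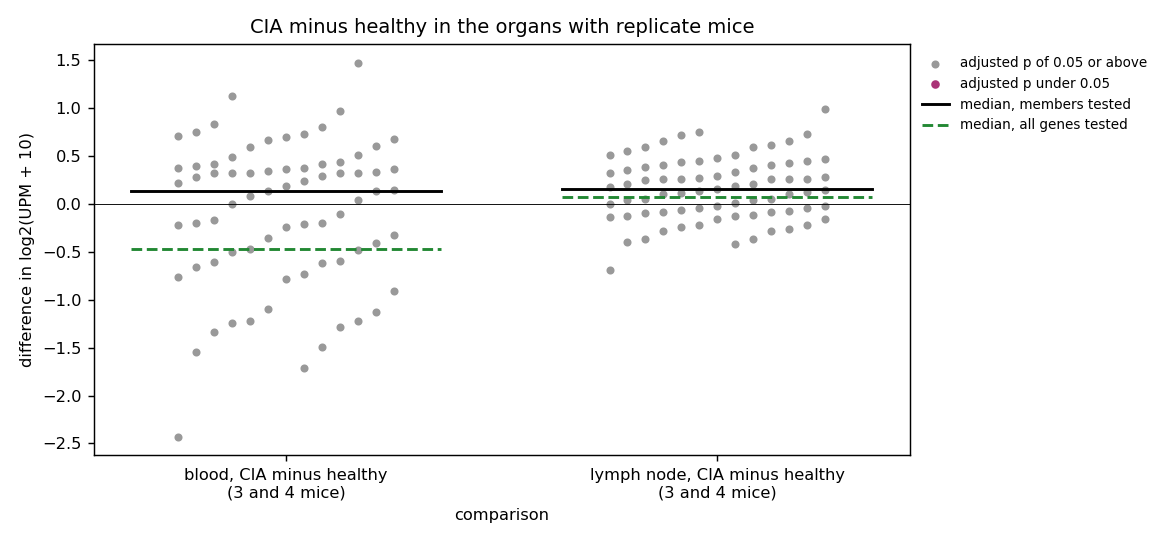
Difference in log2(UPM + 10) between CIA and healthy mice for each member tested in blood (73 genes) and lymph node (77 genes), with 3 CIA and 4 healthy mice. Solid lines are member medians (0.13 and 0.16) and dashed lines the medians of all genes (-0.47 and 0.07), and 0 points passed an adjusted p of 0.05.

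Lymph node and blood were also compared within each state. In healthy mice, 0 of 76 members were called, where 2 of 5225 genes (0.0383%) were, and 1 member passed an unadjusted p under 0.05 beside 15.1% of all genes. This was Ndufc2, an accessory subunit of complex I, at 54 to 86 UPM in lymph node and at 0 to 39 UPM in blood (1.29 ± 0.59), and the groups did not overlap, as was the case for 3.33% of all genes higher in lymph node. In CIA mice, 0 of 74 members were called, where 41 of 4555 genes (0.9%) were, and 0 members passed an unadjusted p under 0.05 beside 22% of all genes. The smallest p belonged to Uqcrh, at 406 to 610 UPM in lymph node and 125 to 539 UPM in blood. Without S2, 6 of 70 members were called higher in lymph node, beside 12.5% of all genes. The interaction of organ and state called 0 of 75 members and 0 of 4949 genes in limma. At an unadjusted p under 0.05 it gave 0 members, beside 8.39% of all genes. With the mouse as a replicate block, the members called remained 0 in these 3 comparisons.

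In the 6 organs with 1 mouse per state there is no replicate check. A ratio is CIA over healthy with 10 UPM added to each, over genes with at least 50 units in both libraries together, and 2-fold is the size named. In joint, 43 of 87 members were 2-fold higher and 0 were 2-fold lower, beside 40.4% and 8.48% of all genes, and the median log2 ratio of 1.00 stood beside 0.72 over all genes. The number 2-fold higher rested on the scaling: it was 13 scaled to the total, 14 without haemoglobin genes and 25 by median of ratios. The matching shares of all genes are not given, so these numbers do not show whether members moved more than other genes. Ndufa3, an accessory subunit of complex I, stood at 25 UPM in H3 and 208 UPM in S1. Sdha, the catalytic subunit of complex II, was at 48 and 24 UPM. In spleen, 15 of 85 were 2-fold higher (26.9% of all genes) and 1 lower (14.7%). Ndufb7 had the second largest ratio there, at 89 and 359 UPM. In lung, 11 of 73 were higher (24.3%) and 3 lower (17.2%), with Atp5j2 at 121 and 464 UPM and Atp5g3 at 101 and 24 UPM.
In muscle, 12 of 82 were higher (17.6%) and 13 lower (41.8%). The largest rise in ratio was that of Sdha, at 25 and 149 UPM, and the largest fall that of Ndufa2, at 367 and 39 UPM. The part of the near absence of muscle markers from the healthy library in these ratios was not tested. In skin, 5 of 82 were higher (13.7%) and 2 lower (16.3%), and Cox7a2l stood at 35 and 234 UPM. In thymus, 2 of 86 were higher (10.5%) and 0 lower (9.64%). These were Cox5a, at 224 and 475 UPM, and Ndufs1, at 19 and 54 UPM. The median log2 ratio of the members, with that of all genes after it, was 0.31 and 0.03 in lung, 0.25 and -0.50 in muscle, 0.25 and -0.03 in skin, 0.37 and 0.19 in spleen, and -0.03 and -0.05 in thymus. Except in joint, the state cannot be told apart from the title suffix, which was CIA in the healthy and 2CIA in the arthritic library.

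Some complex IV subunits have a second isoform with restricted expression, and these were followed as shares of each isoform pair. Ndufa4l2, a hypoxia-inducible relative of Ndufa4, was above 0 in joint and skin of both states and listed at 0 in the other 22 profiles. It held 464 units in 164 of 676 barcodes in S1 joint (9.81% of the pair) and 30 units in H3 joint (3.11%). In skin it held 121 units in S1 (7.26%) and 18 in H6 (1.00%). Cox4i2, known as the lung form of subunit 4, was listed at 0 in both lung profiles and was above 0 in 3 profiles of S1: joint (86 units), skin (25) and muscle (12).
Cox8b, a heart and muscle form, was above 0 in S1 muscle (42 units, 13.2% of the pair with Cox8a) and S1 joint (26 units, 0.687%) and listed at 0 in the other 24 profiles. Cox7a1, the heart and muscle form of subunit 7a, held 18.3% of its pair in S1 muscle (38 units), but was above 0 in 9 profiles, with the most units in thymus (211 in H6 and 110 in S1, 2.43% and 2.34% of the pair). Cox6a2, the heart and muscle form of subunit 6a, held 9.45% in S1 muscle (26 units), 13.3% in H6 spleen (55 units), 7.99% in S7 lymph node (126 units) and 55.6% in H3 blood (30 of 54 units, from 27 barcodes). The muscle forms were therefore present in S1 muscle, where muscle markers were found, and 0 of the 5 isoforms was above 0 in H6 muscle. Rare genes were kept in the libraries of S1 muscle, skin and spleen and in 1 of the 2 libraries of S1 joint, and were missing from H6 muscle, H3 joint and thymus. Of the libraries above 0 for Cox4i2 and Cox8b, 3 of 3 and 2 of 2 were among the 11 that kept rare genes. For Cox6a2 it was 6 of 7, for Cox7a1 7 of 9 and for Ndufa4l2 3 of 4. The part of this filter in the pattern was not tested, and a unit total this low can come from few molecules.

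**Figure D5:**
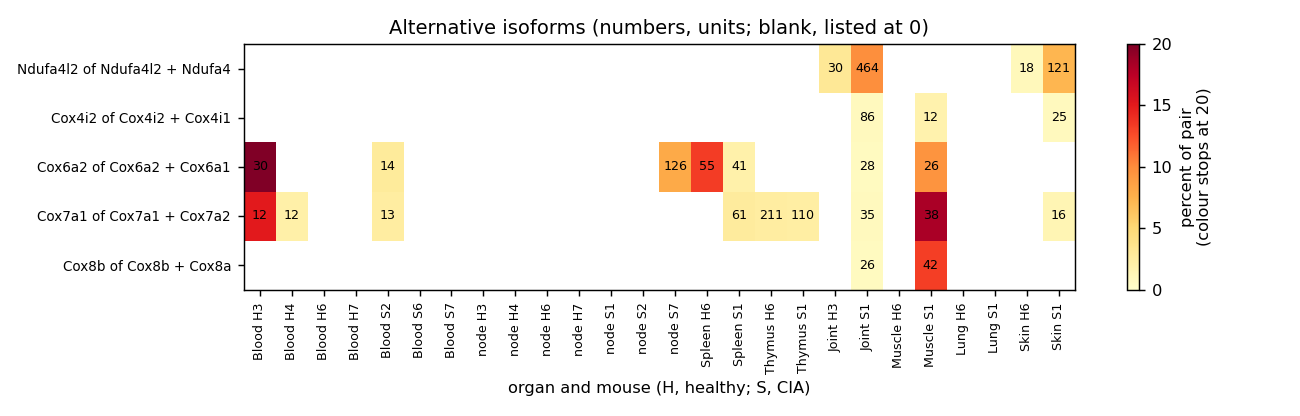
The alternative isoforms (rows) in 26 mouse-organ profiles (columns). Colour is the isoform's percent of its pair, up to 20%, numbers are units and blank cells are listed at 0. Ndufa4l2 appears in joint and skin, Cox8b in S1 joint and S1 muscle.

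Subunit c of the ATP synthase rotor is made from 3 genes, Atp5g1, Atp5g2 and Atp5g3, which encode the same mature protein. Atp5g3 was above 0 in all 26 profiles, with a median of 49.8% of subunit c units, and Atp5g1 in 25, with a median of 43.8%. Atp5g2 was above 0 in 13 profiles and had a median of 0.698%. Atp5g3 led in both profiles of thymus (66.4% in H6 and 61.8% in S1) and spleen (75.4% and 58.5%), and Atp5g1 in both of skin (56.8% and 62.0%). Atp5g1 also led in both profiles of joint, at 64.2% in H3 and narrowly in S1 (49.3%, with Atp5g3 at 48.6%). The leading gene differed between the profiles of muscle and lung: Atp5g3 held 45.9% in H6 and 73.4% in S1 muscle, and 70.9% in H6 and 21.9% in S1 lung. Of the remaining low members, Ndufb4c, a near copy of Ndufb4 whose reads may not be separable, was above 0 in 3 profiles, and Cox6b2, the testis form of subunit 6b, in 12.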

How the data were processed

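Single-cell RNA libraries were made with Seq-Well and aligned, per the study's methods, with STAR to GRCm38. The submitters' notes list GRCh38 and mm9. The signal values deposited by the authors are UMI sums smoothed over 12 nearest neighbours, after filters on barcodes of 10000 reads, 400 transcripts, 200 genes and 20% mitochondrial reads. Mitochondrial genes had 0 rows. One molecule can enter several barcodes, so no counting interval was computed and no count model was used. Units were summed per mouse and organ and scaled by a trimmed mean of log ratios (30% of ratios and 5% of levels trimmed) to UPM. Genes whose mean over the profiles compared reached 25 UPM were tested on log2(UPM + 10) with limma 3.58.1 in R 4.3.3 (two-sided, variance trend, Benjamini-Hochberg over all genes tested). The pseudocount of 10 shrinks differences of low genes. Tables used Python 3.11.15, numpy 2.4.6 and pandas 2.3.3, and the fits were tested on simulated data. Within an organ the mouse was the replicate. Where organs were compared, each mouse-organ profile entered as its own sample, although mice such as S1 and H6 gave several. Only the replicate block put the mouse into the fit. The members, the companion lists and the tests were chosen with earlier results of these data known. Named members were those called (up to 10 per direction by p), otherwise the 3 per direction of smallest p, from which the text gives a selection, besides the 10 of highest mean UPM, the isoform pairs, subunit c and, with 1 mouse per state, the 3 largest ratios per direction with at least 50 units. Other members were named after their values were seen.
Blood and lymph node of one animal pair by the labels. The correlation of their deviations from group means was -0.18 in H4, -0.29 in S2, -0.038 in S7, -0.0047 in H3, 0.046 in H6 and 0.16 in H7. Alternatives covered scaling, pseudocount, filter, haemoglobin removal, distinct profiles, title suffix, the replicate block and leaving out each mouse.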

Additional observations from a re-analysis of the deposited data

Results flagged for a closer look

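Of 140 groups of 4 healthy mice checked for a sample far from the others, 10 had one, where chance gives about 1 in 20. In blood, 7 of the 10 belonged to H3, whose profile rests on 27 barcodes. There, H3 was low for Ndufa6 at 50.6 UPM (405 to 469 in the other mice), Atp5o at 50.6 UPM (152 to 165), Cox6a1 at 81.0 UPM (225 to 252) and Ndufc2, listed at 0 (33.9 to 39.0). It was high for Cox6a2 at 101 UPM (listed at 0 in the others), Cox7a1 at 40.5 UPM (0 to 5.64) and the complex III share of member units at 15.7% (10.9 to 11.4). In lymph node, H4 was high for Atp5g2 at 15.0 UPM (listed at 0 in the others) and Ndufb7 at 174 UPM (122 to 129), and H3 was low for Atp5h at 231 UPM (264 to 267).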

How the results depend on the processing

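Of 1372 alternatives for single members, 1263 kept direction and side of the threshold, 107 fell below it, 2 rose past it and 0 reversed. This tally did not cover every tested member. In lung alone, median-of-ratios scaling took the members called higher from 14 to 33, beside 10.9% and 18.6% of all genes. In the replicated blood and lymph node comparisons 0 members were called under every alternative run, with 1 exception: leaving out 1 mouse gave 0 to 6 members for lymph node against blood in CIA mice (6 without S2). The replicate block changed no member call there. In the organ contrasts it left 2 members in joint, 1 in muscle, 20 in skin, 0 in spleen and 2 in thymus, each higher. The shares of all genes higher were 8.96%, 2.52%, 8.23%, 0.0875% and 1.1% in the same order. In lung the block left 3 members, beside 21.8% of all genes called either way. Among 2CIA libraries the counts were 4 in lung, 6 in muscle (3 higher and 3 lower), 18 in skin, 0 in spleen and 0 in thymus. Median-of-ratios scaling gave 34 in lung (33 higher, beside 18.6% of all genes), 27 in muscle (12.9%) and 3 in spleen (3.34%). Scaling to the total gave 10 in joint (11.9%), and each library as its own sample gave 3 in spleen (2.37%). A trimmed mean within the comparison, chosen after seeing the data, gave 2 in spleen (2.81%). The percentages are all genes called higher. Leaving out 1 mouse gave 2 to 26 in joint, 9 to 17 in lung, 1 to 11 in muscle, 29 to 53 in skin, 0 to 4 in spleen and 4 to 45 in thymus. Each lower end, and the upper end in muscle, came from a fit that left a single profile of the organ. At the other upper ends, all genes called higher were 17.5% in joint, 19.4% in skin, 2.48% in spleen and 8.55% in thymus. In lung, 36.6% of all genes were called either way. The causes were not tested. The log2 ratio of the summed level, CIA to healthy, was, scaled to the total, 0.47 in blood, 0.32 in joint, 0.67 in lung and 0.57 in muscle. Without haemoglobin genes these were 0.31, 0.35, 0.67 and 0.55. Median-of-ratios scaling gave 0.72 in joint, 0.67 in spleen and -0.21 in thymus, and distinct profiles gave 0.57 in muscle. The ratio of blood to lymph node reversed from -0.19 to 0.012 without haemoglobin genes. Ratios to lymph node were, scaled to the total, 0.49 in joint, 0.85 in lung and 1.38 in skin, without haemoglobin 0.50, 0.81 and 1.34, and by median of ratios 1.06 in lung, 0.98 in muscle and 1.56 in thymus. Members 2-fold higher in CIA numbered 13 in joint, 19 in lung and 20 in muscle when scaled to the total, 14, 19 and 19 without haemoglobin, and 25 in joint, 19 in muscle, 29 in spleen and 1 in thymus by median of ratios. Distinct profiles gave 12 in skin. At 1.5-fold the higher members numbered 70 in joint, 22 in lung, 30 in muscle, 25 in skin, 35 in spleen and 4 in thymus, and the lower members 1, 10, 21, 4, 4 and 4. Members 2-fold lower numbered 1 in joint and 1 in lung when scaled to the total or without haemoglobin, 1 in lung, 1 in skin and 1 in thymus by median of ratios, 1 in lung and 1 in skin with distinct profiles, and 1 in thymus with a pseudocount of 1. For these 2-fold and 1.5-fold numbers the shares of all genes are not given. They do not show whether members moved more than other genes. With distinct profiles the highest isoform shares were 85.7% for Cox6a2, 29.7% for Cox7a1 and 20.8% for Cox8b.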
